A study of Mus musculus with 17 samples.

Results

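Microglia were set against oligodendrocyte precursor cells (OPC), both purified from mouse cerebral cortex, in a comparison of 4 of the 17 libraries of a transcriptome survey of the cortex. The members were chosen by label alone: the 2 libraries labelled microglia and the 2 labelled OPC. All 4 came from mice of the strain given as FVN/Swiss, and all were made from polyA-selected RNA in paired-end sequencing. The labels give no age, treatment, sex, animal number or surface marker used to purify the cells, so a gene that served for the selection cannot be told from one that did not. Nothing in the labels says that the 2 libraries of a group came from separate animals, so the spread that enters a p-value is that of the libraries alone and could be technical. The remaining 13 libraries, of 5 further purified types and whole cortex, entered the filter and the estimate of that spread and were otherwise used only to say in which purified type a gene was highest.

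Microglia, the macrophages of brain tissue, descend from yolk sac progenitors, depend on signals through the Csf1 receptor, survey the tissue with motile processes, take up debris and secrete cytokines. OPC arise from neural progenitors, divide in response to platelet-derived growth factor, carry a coat of proteoglycans, receive synaptic input from neurons, and give rise to the oligodendrocytes that form myelin. Both are spread over the whole cortex, and they meet through secreted ligands and their receptors.

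Values are FPKM as deposited, that is, sequenced fragments scaled to the length of the transcript and to the number of mapped fragments of the library. Each gene is given in every library, with library 1 before library 2, followed by the difference of the group means on the log2(FPKM + 1) scale, microglia minus OPC, with its standard error (SE). For every tested gene whose library values are printed, the libraries of the 2 types did not overlap. That scale understates the difference of genes at low levels. A gene was called when its adjusted p-value was below 0.05 and its log2 difference was at least 1 in size.

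The sum of FPKM over all genes was 367933 and 389838 in the microglia libraries, against 240692 and 248810 in the OPC libraries. Cst3, which encodes the protease inhibitor cystatin C, was the highest gene of both microglia libraries, with up to 14.6% of the sum, and the beta-globin gene Beta-s was the highest gene of OPC library 1, with 5.54% of its sum. Beta-s stood at 13344 FPKM in OPC library 1. It was also the library with more of the microglial genes: all 14 microglia markers were higher in OPC library 1 than in OPC library 2, with a median ratio of 1.87. As a share of their mean level in microglia, those markers stood at a median of 8.03% in OPC library 1 and 4.08% in OPC library 2. The 14 OPC markers stood at a median of 0.186% and 0.23% of their OPC level in the microglia libraries. Without OPC library 1, 1808 genes were called higher in microglia and 5117 higher in OPC, against the counts over all libraries given next. In bulk libraries such as these, fewer cells of a type and less RNA per cell cannot be told apart.

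Of 22462 genes listed, 14011 reached 1 FPKM in at least 2 of the 17 libraries and were tested. Of these, 1906 genes (13.6%) were called higher in microglia and 5256 genes (37.5%) were called higher in OPC, by limma with Benjamini-Hochberg adjustment. The median gene was lower in microglia by 0.59 on the log2 scale. How the libraries are scaled moves this split: with the libraries scaled to a common sum of FPKM, 1304 genes were higher in microglia and 7033 higher in OPC, and with median-of-ratios scaling 2595 and 3838. The first scaling lowered the median log2 difference by 0.47 and the second raised it by 0.42. Microglia held 26.6% of all calls as deposited, 15.6% after scaling to a common sum and 40.3% after median-of-ratios scaling. Under both scalings 1304 of the genes higher in microglia and 3838 of those higher in OPC kept their call. The libraries of the 2 types did not overlap for 1903 of the genes called higher in microglia and for 5252 of those called higher in OPC. The conditions of a call favour such separation, and the share over all genes tested is not given here. These counts are thus no further support for the calls.

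The 12 largest called differences in each direction were led by Gdf15 toward microglia and by Pdgfra toward OPC. Gdf15, a secreted stress-responsive member of the TGF-beta family, stood at 530.2 and 1003 FPKM in the microglia libraries, against 2.10 and 1.87 FPKM in the OPC libraries, a log2 difference of 7.94 (SE 0.24, adjusted p = 9.00e-12). The 12 largest differences toward microglia further held Tnf, the adhesion molecule Icam1, the chemokine-binding receptor Ccrl2, the fatty acid receptor Gpr84, the chemokines Ccl3, Ccl4 and Cxcl2, the NADPH oxidase subunit Ncf1, the surface protein Cd83, and the survival genes Bcl2a1b and Bcl2a1d. The last pair are near-identical copies, and reads may have been split between them. Ccrl2 had 1033 and 1099 FPKM in microglia and 19.9 and 9.48 FPKM in OPC, with a log2 difference of 6.17 (SE 0.26, adjusted p = 9.43e-11). For Cd83 the libraries gave 1934 and 1734 FPKM in microglia, against 42.00 and 24.5 FPKM in OPC, and a log2 difference of 5.79 (SE 0.26, adjusted p = 1.70e-10). All 12 were at their highest in microglia among the 7 purified types. The level of Pdgfra, the receptor that drives division of OPC, was 0.325 and 0.313 FPKM in microglia, against 627 and 563 FPKM in OPC, and the log2 difference was -8.82 (SE 0.45, adjusted p = 4.75e-10). Matn4, an extracellular matrix adaptor, had 0.431 and 0.873 FPKM in microglia and 304 and 426 FPKM in OPC, with a log2 difference of -7.78 (SE 0.33, adjusted p = 1.01e-10). For Cntn1, an adhesion molecule of the immunoglobulin family, the libraries gave 0.405 and 0.33 FPKM in microglia, against 337 and 226 FPKM in OPC, and a log2 difference of -7.66 (SE 0.25, adjusted p = 1.41e-11). The 12 toward OPC also held the tetraspan gene Lhfpl3, the receptor Gpr17, the secreted synaptic protein C1ql1, Olig1 and Olig2, the AMPA receptor partner Cacng4, the phosphatase Ptprz1, the membrane protein Pllp and the cysteine dioxygenase Cdo1. Of these 12, 9 were at their highest in OPC among the purified types, while Gpr17 and Pllp were highest in newly formed oligodendrocytes and Ptprz1 in astrocytes. Libraries that do not overlap between the types were a condition for being among these 24 genes, so their separation is not a result.

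**Figure D1:**
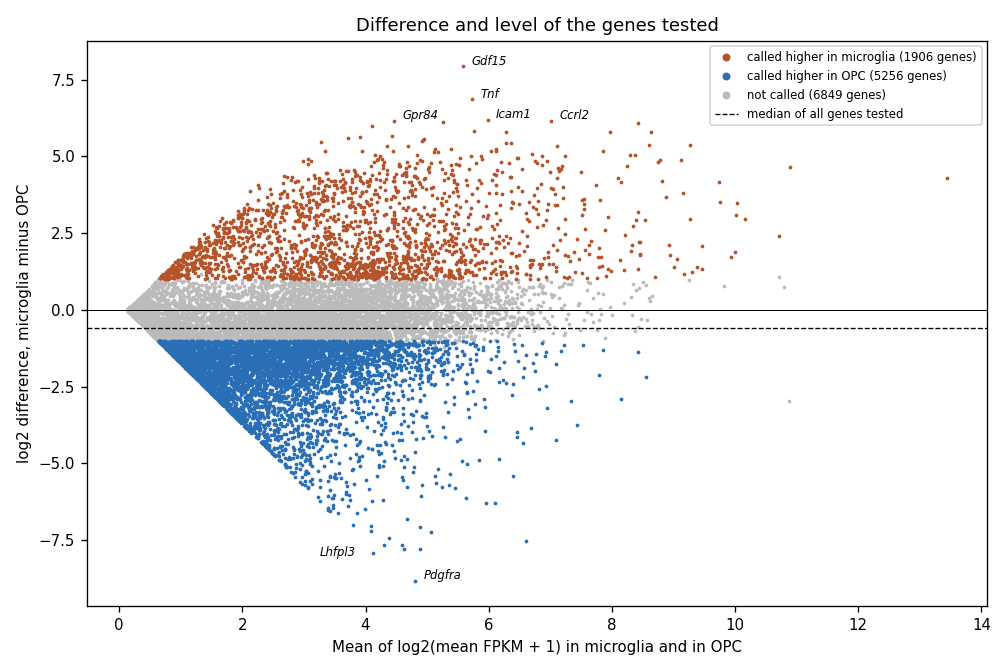
Each point is 1 of the 14011 genes tested, with the mean of its log2 levels in microglia and OPC on the horizontal axis and the log2 difference, microglia minus OPC, on the vertical axis; colours mark the 1906 genes called higher in microglia, the 5256 called higher in OPC and the 6849 not called. The dashed line at -0.59 is the median of all genes tested, and Gdf15 and Pdgfra lie at the ends of the range.

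The labelled identity of both groups was seen in their markers. All 14 microglia markers were called higher in microglia, with a median log2 difference of 3.96, and all 14 OPC markers were called higher in OPC, with a median of -7.12, against -0.59 over all genes tested. Tmem119, a membrane protein of resident microglia, was measured at 617 and 1143 FPKM in microglia and at 26.8 and 14.3 FPKM in OPC, which is a log2 difference of 5.35 (SE 0.32, adjusted p = 2.00e-09). Csf1r, the receptor that microglia need to survive, stood at 2502 and 3462 FPKM in the microglia libraries, against 137 and 69.7 FPKM in the OPC libraries, a log2 difference of 4.90 (SE 0.39, adjusted p = 4.03e-08). The level of P2ry12, the ADP receptor of surveying processes, was 375 and 286 FPKM in microglia, against 103 and 32.2 FPKM in OPC, and the log2 difference was 2.48 (SE 0.40, adjusted p = 6.19e-05). It had the smallest difference of the list. Sox10, a transcription factor of the whole oligodendrocyte lineage, had 0.44 and 0.489 FPKM in microglia and 127 and 163 FPKM in OPC, with a log2 difference of -6.63 (SE 0.23, adjusted p = 1.97e-11). For Cspg4, the gene of the NG2 proteoglycan, the libraries gave 0.178 and 0.186 FPKM in microglia, against 100.4 and 131 FPKM in OPC, and a log2 difference of -6.61 (SE 0.18, adjusted p = 7.15e-12). The protocadherin gene Pcdh15 and the tenascin gene Tnr were listed at the lowest value, 0.1 FPKM, in both microglia libraries.

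**Figure D2:**
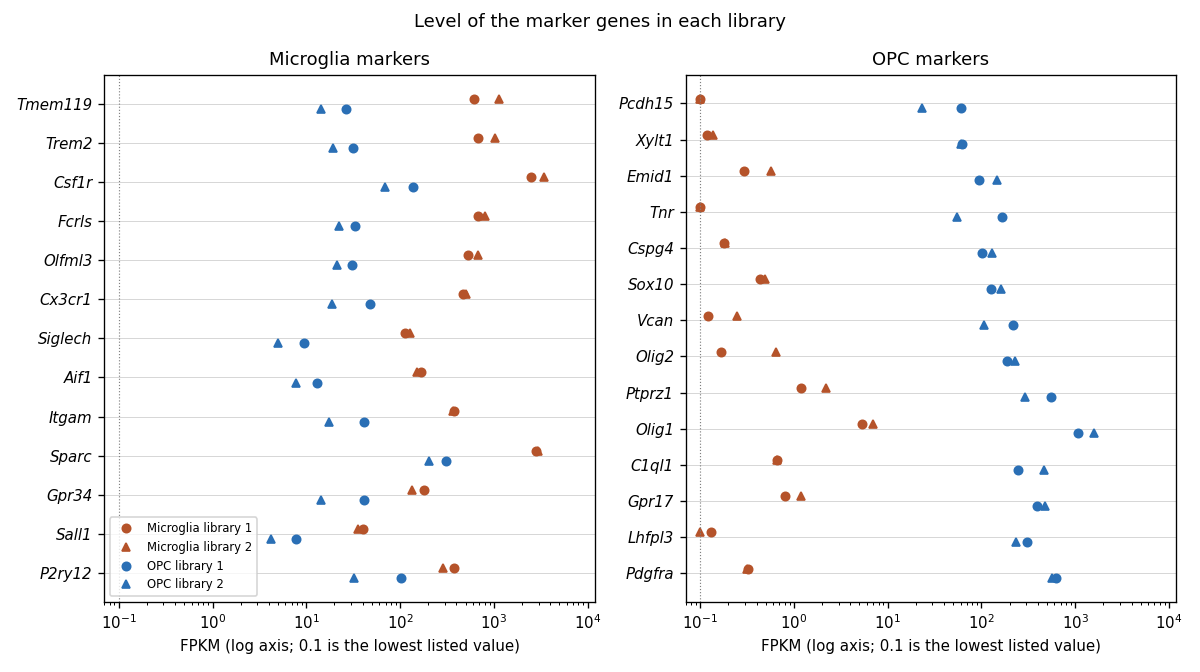
Level in FPKM (log axis) of 13 of the 14 microglia markers and the 14 OPC markers in the microglia libraries and the OPC libraries; each point is 1 library and the dotted line is the lowest listed value of 0.1. Over the whole lists, the microglia markers are not near the floor in OPC, at a median of 8.03% and 4.08% of their microglial level, whereas the OPC markers lie at 0.186% and 0.23% of their OPC level in microglia.

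Markers of other cells were looked at in the same 4 libraries, since purified populations can hold some of them. Of 12 astrocyte markers, 10 were called higher in OPC; the glutamate transporter Slc1a2 stood at 8.85 and 6.90 FPKM in microglia and 249.8 and 96.02 FPKM in OPC. Summed over that list the level was 103 and 103 FPKM in microglia and 1101 and 566 FPKM in OPC. All 8 fibroblast markers, a list that includes Pdgfra and Igf2, were called higher in OPC, and the collagen gene Col1a2 stood at 0.715 and 0.626 FPKM in microglia and 21.7 and 46.6 FPKM in OPC. Of the 4 erythroid genes tested, 3 were called higher in OPC, and the sum of the erythroid genes was 805 and 383 FPKM in microglia and 16984 and 1189 FPKM in OPC. None of the 4 was called when OPC library 1 or microglia library 2 was left out, with the 4 libraries alone in the fit, or with median-of-ratios scaling. All 12 perivascular macrophage markers were called higher in microglia, with the scavenger receptor Stab1 at 120.3 and 139.6 FPKM in microglia and 5.54 and 2.96 FPKM in OPC. Their summed level was 555 and 494 FPKM in microglia and 33.05 and 24.3 FPKM in OPC, against 13041 and 15332 FPKM in microglia and 1101 and 597 FPKM in OPC for the microglia markers. Neutrophil and monocyte genes were called higher in microglia in 6 of 7 tested, with S100a8 at 27.2 and 45.1 FPKM in microglia and 3.39 and 0.119 FPKM in OPC, and 3 of 3 lymphocyte genes tested were called, or 1 with a common sum, with Cd79b, a B cell receptor subunit, at 6.86 and 8.94 FPKM in microglia and 0.367 and 0.1 FPKM in OPC. Of the lymphocyte list, 8 genes did not pass the filter, among them Cd3e, and of the neutrophil and monocyte list 4 did not. A gene can pass the filter through the 2 microglia libraries alone. The shares called among the tested members of these 2 lists are thus partly set by the filter. Of 12 neuron markers, 1 was called higher in microglia, or none without OPC library 1, and 5 higher in OPC. These shares, 8.33% and 41.7%, lay near the 13.6% and 37.5% over all genes tested. Of 12 myelinating oligodendrocyte markers, 1 was called higher in microglia and 7 higher in OPC, or 1 and 4 with median-of-ratios scaling, and of 10 newly formed oligodendrocyte markers none and 6. Of 12 endothelial markers, 2 were called higher in microglia and 1 higher in OPC, and the first count was 5 without microglia library 1 and 1 without microglia library 2 or OPC library 2. Of 9 mural markers tested, none was called higher in microglia and 3 were called higher in OPC, or 5 with a common sum. Among them was Cspg4, which is also an OPC marker. The mural share in OPC as deposited, 33.3%, lay near the 37.5% over all genes tested. Likewise the endothelial share in microglia as deposited, 16.7%, lay near the 13.6% over all genes tested, and that in OPC was 8.33%. The part that such cells had in the differences below was not tested.

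Transcription factors split by lineage. Of 22 microglial transcription factors, 20 were called higher in microglia and none higher in OPC, although 1 was called in OPC with the libraries scaled to a common sum; the median was 2.92. Sfpi1, the gene of the myeloid factor PU.1, was measured at 397 and 417 FPKM in microglia and at 15.7 and 6.02 FPKM in OPC, which is a log2 difference of 5.23 (SE 0.33, adjusted p = 3.61e-09). Irf8, an interferon regulatory factor of myeloid cells, stood at 246 and 253 FPKM in the microglia libraries, against 8.36 and 3.63 FPKM in the OPC libraries, a log2 difference of 5.25 (SE 0.23, adjusted p = 1.41e-10). The level of Cebpb, a factor of inflammatory gene expression, was 273 and 319.9 FPKM in microglia, against 7.72 and 8.80 FPKM in OPC, and the log2 difference was 5.004 (SE 0.31, adjusted p = 2.96e-09). Ikzf1, Runx1, Fli1 and Sall1 were called as well, Sall1 at the lower level of 40.6 and 35.9 FPKM in microglia and 7.83 and 4.23 FPKM in OPC. Stat3 and Etv5 were not called. Of 24 oligodendrocyte lineage transcription factors, 1 was called higher in microglia and 19 higher in OPC, with a median of -3.42. Olig2, a factor required for the lineage, had 0.166 and 0.651 FPKM in microglia and 186 and 227 FPKM in OPC, with a log2 difference of -7.22 (SE 0.23, adjusted p = 1.41e-11). For Nkx2-2, a homeobox factor of the oligodendrocyte lineage, the libraries gave 0.1 and 0.1 FPKM in microglia, against 21.01 and 21.8 FPKM in OPC, and a log2 difference of -4.35 (SE 0.21, adjusted p = 2.80e-10). Sox5, Sox6, Sox3, Zfp488 and Myt1 were likewise listed at 0.1 FPKM in both microglia libraries. The exception, called higher in microglia, was Id2, an inhibitor of basic helix-loop-helix factors, which stood at 889 and 512 FPKM in microglia and 105 and 63.3 FPKM in OPC.

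Promoters of 4 genes of the lists are shown because they hold a searched motif; a match describes the letters only and is no evidence of binding. Each is 250 bases before to 50 bases after the transcription start in RefSeq, on build GRCm38.p6, read 5′ to 3′ on the strand of the gene. Both strands were searched for GAGGAAGT, a sequence bound by PU.1, for GAAGTGAAA, a composite of an ETS and an IRF site, for ACAATGG, a SOX sequence, and for the E-box CAGCTG. The first 2 can overlap in the letters GAAGT. Over 27025 promoters, 1 for each gene, the PU.1 sequence was present in 3.29%, the composite in 0.53%, the SOX sequence in 3.68% and the E-box in 16.2%. Capitals mark the matches. The Fc receptor gene Fcgr4 is on the plus strand at chr1:171018676-171018975 with a match to GAGGAAGT on the opposite strand 24 bases before the start, and the inhibitory Fc receptor gene Fcgr2b is on the minus strand at chr1:170976022-170976321 with a match to GAAGTGAAA on the opposite strand 35 bases before the start.
Fcgr4: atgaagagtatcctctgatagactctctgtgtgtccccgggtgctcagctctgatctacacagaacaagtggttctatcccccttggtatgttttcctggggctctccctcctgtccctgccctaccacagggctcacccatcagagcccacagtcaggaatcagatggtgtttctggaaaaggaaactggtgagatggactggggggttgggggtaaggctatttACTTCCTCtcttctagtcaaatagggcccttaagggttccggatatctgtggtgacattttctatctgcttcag
Fcgr2b: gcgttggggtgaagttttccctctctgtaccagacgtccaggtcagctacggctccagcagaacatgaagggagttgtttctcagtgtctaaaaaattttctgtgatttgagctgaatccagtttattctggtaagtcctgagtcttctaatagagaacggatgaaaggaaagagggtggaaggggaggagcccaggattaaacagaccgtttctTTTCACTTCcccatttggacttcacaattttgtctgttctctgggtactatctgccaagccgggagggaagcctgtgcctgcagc
Of the 20 phagocytic receptors and adaptors called higher in microglia, 16 had a promoter in the table; 3 of these held GAGGAAGT and 1 held GAAGTGAAA. Of the 14 microglia markers 10 had a promoter, and none held either. Fcgr2b was measured at 106 and 96.2 FPKM in microglia and at 7.46 and 4.59 FPKM in OPC, which is a log2 difference of 3.89 (SE 0.19, adjusted p = 2.62e-10). Fcgr4 stood at 3.76 and 2.95 FPKM in the microglia libraries, against 0.611 and 0.258 FPKM in the OPC libraries, a log2 difference of 1.61 (SE 0.12, adjusted p = 3.17e-08). Both libraries of microglia stood above both of OPC in either gene, and the Fc receptor genes are similar enough to share reads, so their levels are uncertain.
Among the oligodendrocyte lineage factors called higher in OPC, 11 of 19 had a promoter and 3 of them held ACAATGG: Sox5, Myt1 and Hes5. Of the 14 OPC markers 9 had a promoter, and none held ACAATGG. The E-box CAGCTG was in the promoters of 4 of the 10 microglia markers, 6 of the 16 phagocytic genes, 3 of the 9 OPC markers and 2 of the 11 lineage factors. The promoters of the zinc finger gene Myt1, on the plus strand at chr2:181763082-181763381 with matches on the opposite strand 130 and 150 bases before the start, and of the Notch target gene Hes5, on the plus strand at chr4:154960673-154960972 with a match on the opposite strand 173 bases before the start, were:
Myt1: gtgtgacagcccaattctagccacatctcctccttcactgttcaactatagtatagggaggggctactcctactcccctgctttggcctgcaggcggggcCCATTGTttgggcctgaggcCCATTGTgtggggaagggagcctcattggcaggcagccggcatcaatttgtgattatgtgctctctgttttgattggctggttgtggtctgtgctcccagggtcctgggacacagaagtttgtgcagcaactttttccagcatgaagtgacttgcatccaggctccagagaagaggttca
Hes5: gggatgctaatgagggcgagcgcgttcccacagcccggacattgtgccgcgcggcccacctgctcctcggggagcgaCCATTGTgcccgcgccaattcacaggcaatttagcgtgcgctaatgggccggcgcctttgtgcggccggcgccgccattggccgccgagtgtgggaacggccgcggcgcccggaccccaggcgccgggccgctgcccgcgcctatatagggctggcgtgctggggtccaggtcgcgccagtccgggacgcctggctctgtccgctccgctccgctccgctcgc
The level of Myt1 was 0.1 and 0.1 FPKM in microglia, against 45.99 and 30.1 FPKM in OPC, and the log2 difference was -5.12 (SE 0.19, adjusted p = 3.68e-11). Hes5 had 0.339 and 1.074 FPKM in microglia and 69.6 and 74.5 FPKM in OPC, with a log2 difference of -5.45 (SE 0.26, adjusted p = 2.62e-10). Both genes were far higher in OPC, and Myt1 was at the lowest listed value in microglia. A promoter was at hand for 78.2% of the genes called higher in microglia and 77.3% of those called higher in OPC. This is under the coverage required here for such a check, so the shares of the motifs were not compared between those sets. Coverage was 71.4% for the microglia markers, 64.3% for the OPC markers and 57.9% for the lineage factors. The counts for these lists thus only describe the promoters at hand.

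**Figure D3:**
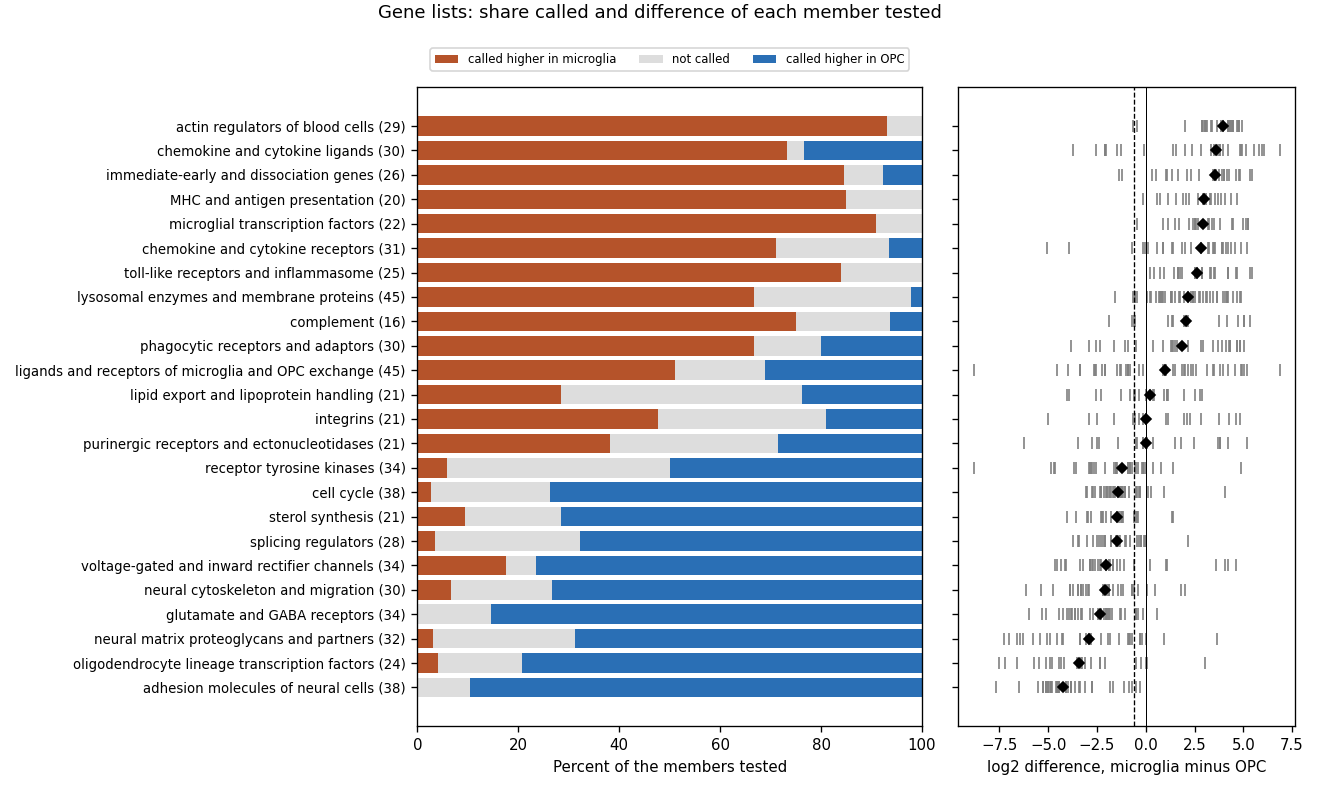
Left, percent of the tested members of each list (number tested in brackets) called higher in microglia, not called or called higher in OPC. Right, the log2 difference of each member, microglia minus OPC (ticks), with the list's median (diamonds) and the median of all genes tested, -0.59 (dashed line); the actin regulators of blood cells lie at the top with a median of 3.96 and the neural adhesion molecules at the bottom with -4.26.

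Cytokines and chemokines were mostly microglial, with a smaller set higher in OPC than in microglia. Of 30 ligands tested, 22 were called higher in microglia and 7 higher in OPC, with a median of 3.58. Tnf, the tumour necrosis factor, was measured at 498 and 565 FPKM in microglia and at 6.88 and 1.64 FPKM in OPC, which is a log2 difference of 6.86 (SE 0.42, adjusted p = 2.83e-09). Ccl3, a chemokine that draws monocytes and T cells, stood at 3157 and 1713 FPKM in the microglia libraries, against 80.2 and 13.7 FPKM in the OPC libraries, a log2 difference of 6.07 (SE 0.55, adjusted p = 1.83e-07). The level of Il1a, the gene of interleukin 1 alpha, was 416 and 124 FPKM in microglia, against 39.8 and 8.92 FPKM in OPC, and the log2 difference was 3.50 (SE 0.54, adjusted p = 4.14e-05). Ccl2, a chemokine for monocytes, had 387 and 96.4 FPKM in microglia and 15.2 and 8.65 FPKM in OPC, with a log2 difference of 3.96 (SE 0.45, adjusted p = 2.18e-06). Both Il1a and Ccl2 were higher in library 1 than in library 2 of either type. The 7 ligands on the OPC side were Cxcl14, Cxcl12, Cx3cl1, Tgfb2, Il33, Il34 and Il18. Their share of the ligands tested, 23.3%, was under the 37.5% over all genes tested. Among the purified types, Cxcl14, Tgfb2, Il33 and Il18 were highest in astrocytes, and Cxcl12, Cx3cl1 and Il34 in neurons. For Cxcl14, a chemokine with few described receptors, the libraries gave 4.14 and 4.21 FPKM in microglia, against 61.4 and 77.2 FPKM in OPC, and a log2 difference of -3.75 (SE 0.40, adjusted p = 1.11e-06). Cx3cl1, the ligand of the microglial receptor Cx3cr1, was measured at 6.39 and 9.86 FPKM in microglia and at 27.1 and 51.5 FPKM in OPC, which is a log2 difference of -2.10 (SE 0.53, adjusted p = 0.00249). Il34, a second ligand of Csf1r, stood at 0.889 and 1.60 FPKM in the microglia libraries, against 3.82 and 6.89 FPKM in the OPC libraries, a log2 difference of -1.48 (SE 0.31, adjusted p = 5.65e-04). Il10 and Il6 did not pass the filter.

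Receptors for these factors leaned the same way. Of 31 tested, 22 were called higher in microglia and 2 higher in OPC, with a median of 2.82. The level of Tnfrsf1b, the second receptor for Tnf, was 81.3 and 96.7 FPKM in microglia, against 2.45 and 0.791 FPKM in OPC, and the log2 difference was 5.17 (SE 0.22, adjusted p = 8.72e-11). Il10ra, the ligand-binding chain of the interleukin 10 receptor, had 189 and 163 FPKM in microglia and 10.3 and 3.81 FPKM in OPC, with a log2 difference of 4.58 (SE 0.31, adjusted p = 7.82e-09). For Il1rap, the accessory chain of the interleukin 1 and interleukin 33 receptors, the libraries gave 0.493 and 0.209 FPKM in microglia, against 48.9 and 39.7 FPKM in OPC, and a log2 difference of -5.07 (SE 0.24, adjusted p = 2.77e-10). Cxcr7, a scavenging receptor for Cxcl12, was measured at 0.694 and 1.09 FPKM in microglia and at 23.8 and 31.5 FPKM in OPC, which is a log2 difference of -3.92 (SE 0.21, adjusted p = 6.21e-10). These were the 2 receptors called higher in OPC. The interleukin 1 receptor Il1r1 itself was not called. Ccr2, a receptor of blood monocytes, did not pass the filter.

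Sensors of microbial products, complement and phagocytic receptors were higher in microglia in large part. Of 25 toll-like receptor and inflammasome genes tested, 21 were called higher in microglia and none in OPC, with a median of 2.62. Cd14, the lipopolysaccharide co-receptor, stood at 605 and 463 FPKM in the microglia libraries, against 14.6 and 8.55 FPKM in the OPC libraries, a log2 difference of 5.44 (SE 0.32, adjusted p = 1.97e-09). The level of Tlr2, a receptor for bacterial lipoproteins, was 161 and 150.4 FPKM in microglia, against 4.995 and 1.48 FPKM in OPC, and the log2 difference was 5.34 (SE 0.29, adjusted p = 9.12e-10). Tlr4, by contrast, was low, at 3.75 and 2.56 FPKM in microglia and 0.76 and 0.281 FPKM in OPC. Of 16 complement genes tested, 12 were called higher in microglia; the exception was Serping1, the C1 inhibitor, which was called higher in OPC. C1qa, a chain of the C1q recognition molecule, had 3052 and 4806 FPKM in microglia and 118 and 72.3 FPKM in OPC, with a log2 difference of 5.36 (SE 0.38, adjusted p = 1.24e-08). For C3ar1, the receptor for C3a, the libraries gave 137 and 79.1 FPKM in microglia, against 8.52 and 2.66 FPKM in OPC, and a log2 difference of 4.15 (SE 0.35, adjusted p = 7.57e-08). C3 itself stood only at 2.04 and 1.03 FPKM in microglia and 0.123 and 0.138 FPKM in OPC.

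Of 30 phagocytic receptors and adaptors tested, 20 were called higher in microglia and 6 higher in OPC. Tyrobp, the signalling adaptor of Trem2, was measured at 1288 and 1698 FPKM in microglia and at 83.2 and 38.6 FPKM in OPC, which is a log2 difference of 4.68 (SE 0.33, adjusted p = 1.42e-08). Itgb5, an integrin chain that pairs with the alpha-v chain to bind Mfge8, stood at 533 and 775 FPKM in the microglia libraries, against 28.5 and 15.97 FPKM in the OPC libraries, a log2 difference of 4.85 (SE 0.33, adjusted p = 8.01e-09). The level of Itgav, the gene of that alpha-v chain, was 10.6 and 8.82 FPKM in microglia, against 94.8 and 67.6 FPKM in OPC, and the log2 difference was -2.93 (SE 0.22, adjusted p = 2.38e-08). Partner chains of 1 integrin thus stood on opposite sides. The remaining 5 on the OPC side were Bai1, Tyro3, Dock1, Megf10 and Mfge8. Bai1, a receptor for phosphatidylserine, had 2.40 and 4.25 FPKM in microglia and 46.3 and 74.1 FPKM in OPC, with a log2 difference of -3.82 (SE 0.24, adjusted p = 3.43e-09). For Mertk, a receptor for phosphatidylserine bridged by Gas6 and Pros1, the libraries gave 29.8 and 17.97 FPKM in microglia, against 14.6 and 4.45 FPKM in OPC, and a log2 difference of 1.39 (SE 0.41, adjusted p = 0.00683). The Mertk call was lost with the libraries scaled to a common sum, with the 4 libraries alone in the fit, and without microglia library 1 or OPC library 2. Tyro3, a receptor of the same family as Mertk, was measured at 1.098 and 2.23 FPKM in microglia and at 11.8 and 17.5 FPKM in OPC, which is a log2 difference of -2.56 (SE 0.22, adjusted p = 9.20e-08). Nucleotide receptors and the enzymes that degrade their ligands were called in both directions. Of 21 tested, 8 were called higher in microglia and 6 higher in OPC. These shares, 38.1% and 28.6%, stand against 13.6% and 37.5% over all genes tested. The sign of the median of -0.01 changed with the scaling. P2ry6, the UDP receptor linked to uptake, stood at 124 and 129.9 FPKM in the microglia libraries, against 3.68 and 1.72 FPKM in the OPC libraries, a log2 difference of 5.17 (SE 0.20, adjusted p = 4.02e-11). The level of Entpd1, an enzyme that degrades extracellular ATP, was 144 and 145 FPKM in microglia, against 13.5 and 7.40 FPKM in OPC, and the log2 difference was 3.73 (SE 0.22, adjusted p = 1.80e-09). Adora1, an adenosine receptor, had 2.35 and 3.25 FPKM in microglia and 34.5 and 48.5 FPKM in OPC, with a log2 difference of -3.47 (SE 0.21, adjusted p = 2.46e-09). For Enpp2, which encodes autotaxin, the enzyme that makes lysophosphatidic acid, the libraries gave 0.791 and 1.19 FPKM in microglia, against 156 and 138 FPKM in OPC, and a log2 difference of -6.22 (SE 0.30, adjusted p = 3.09e-10).

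Lysosomal genes were higher in microglia in most cases. Of 45 tested, 30 were called higher in microglia and 1, the cathepsin gene Ctsk, higher in OPC, or 26 and 5 with the libraries scaled to a common sum, with a median of 2.16. Ctsd, an aspartic protease, was measured at 8291 and 11006 FPKM in microglia and at 404 and 349 FPKM in OPC, which is a log2 difference of 4.66 (SE 0.22, adjusted p = 2.41e-10). Grn, the progranulin gene, stood at 771 and 975 FPKM in the microglia libraries, against 56.7 and 45.97 FPKM in the OPC libraries, a log2 difference of 4.06 (SE 0.18, adjusted p = 1.15e-10). The level of Psap, the gene of the saposin precursor, was 1509 and 2056 FPKM in microglia, against 496 and 567 FPKM in OPC, and the log2 difference was 1.73 (SE 0.21, adjusted p = 4.15e-06). It was called although it was abundant in both types. The widely used lysosomal membrane gene Lamp1 stood at 514 and 480.1 FPKM in microglia and 259 and 313 FPKM in OPC and was not called. Of 20 antigen presentation genes tested, 17 were called higher in microglia and none in OPC. Cd74, the invariant chain of class II molecules, had 139 and 92.7 FPKM in microglia and 5.28 and 2.16 FPKM in OPC, with a log2 difference of 4.68 (SE 0.28, adjusted p = 2.18e-09). For B2m, the light chain of class I molecules, the libraries gave 1106 and 725 FPKM in microglia, against 155 and 88.98 FPKM in OPC, and a log2 difference of 2.92 (SE 0.32, adjusted p = 1.39e-06). The class II transactivator gene Ciita did not pass the filter. Actin regulators of blood cells were called higher in microglia in 27 of 29 tested and higher in OPC in none, or in 2 with the libraries scaled to a common sum. Coro1a, the gene of an actin-binding coronin, was measured at 291 and 449.9 FPKM in microglia and at 17.5 and 16.4 FPKM in OPC, which is a log2 difference of 4.34 (SE 0.27, adjusted p = 3.18e-09). Rac2, a small GTPase of blood cells, stood at 77.8 and 74.5 FPKM in the microglia libraries, against 4.68 and 1.80 FPKM in the OPC libraries, a log2 difference of 4.27 (SE 0.24, adjusted p = 1.47e-09). The level of Vav1, an exchange factor that activates such GTPases, was 113 and 119 FPKM in microglia, against 6.02 and 2.92 FPKM in OPC, and the log2 difference was 4.48 (SE 0.21, adjusted p = 2.06e-10).

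Of 34 receptor tyrosine kinases tested, 2, Csf1r and Mertk, were called higher in microglia and 17 higher in OPC; the median was -1.20. Ntrk2, the receptor for brain-derived neurotrophic factor, had 3.17 and 3.16 FPKM in microglia and 124 and 112 FPKM in OPC, with a log2 difference of -4.84 (SE 0.23, adjusted p = 2.51e-10). For Ddr1, a collagen receptor, the libraries gave 0.499 and 0.658 FPKM in microglia, against 31.8 and 47.8 FPKM in OPC, and a log2 difference of -4.66 (SE 0.18, adjusted p = 5.20e-11). Erbb3, a neuregulin receptor, was measured at 0.1 and 0.1 FPKM in microglia and at 13.4 and 13.02 FPKM in OPC, which is a log2 difference of -3.69 (SE 0.20, adjusted p = 9.35e-10). Fgfr1, a receptor for fibroblast growth factors, stood at 1.43 and 1.22 FPKM in the microglia libraries, against 14.96 and 16.02 FPKM in the OPC libraries, a log2 difference of -2.83 (SE 0.17, adjusted p = 2.29e-09). Of 32 matrix genes, 1, the syndecan gene Sdc4, was called higher in microglia and 22 higher in OPC, with a median of -2.91. The level of Bcan, the brevican gene, was 10.1 and 13.4 FPKM in microglia, against 479.7 and 613 FPKM in OPC, and the log2 difference was -5.42 (SE 0.30, adjusted p = 1.08e-09). Vcan, the versican gene, had 0.121 and 0.245 FPKM in microglia and 217 and 107 FPKM in OPC, with a log2 difference of -7.02 (SE 0.42, adjusted p = 2.27e-09). For Cspg5, a membrane chondroitin sulfate proteoglycan, the libraries gave 5.14 and 6.81 FPKM in microglia, against 435 and 660.2 FPKM in OPC, and a log2 difference of -6.28 (SE 0.31, adjusted p = 3.90e-10). For Sdc4 the libraries gave 151 and 104 FPKM in microglia, against 14.3 and 5.83 FPKM in OPC, and a log2 difference of 3.63 (SE 0.38, adjusted p = 8.20e-07).

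Adhesion molecules of neural cells had the lowest median of the functional lists, -4.26, with none of 38 called higher in microglia and 34 higher in OPC. Lrrn1, a leucine-rich repeat membrane protein, was measured at 0.1 and 0.1 FPKM in microglia and at 106 and 92.9 FPKM in OPC, which is a log2 difference of -6.51 (SE 0.23, adjusted p = 2.55e-11). Ncam1, the neural cell adhesion molecule, stood at 1.16 and 1.53 FPKM in the microglia libraries, against 129.8 and 88.6 FPKM in the OPC libraries, a log2 difference of -5.53 (SE 0.19, adjusted p = 2.01e-11). The level of Nlgn3, a neuroligin gene known from synapses, was 0.3 and 0.36 FPKM in microglia, against 47.9 and 51.1 FPKM in OPC, and the log2 difference was -5.25 (SE 0.15, adjusted p = 7.18e-12). Nrxn2, a neurexin gene and thus a partner of the neuroligins, had 1.73 and 2.89 FPKM in microglia and 88.8 and 138 FPKM in OPC, with a log2 difference of -5.10 (SE 0.23, adjusted p = 1.39e-10). The remaining 4 genes, Cntn2, Cntn3, Cntnap1 and Cntnap2, were not called. Of 30 cytoskeletal and migration genes of neural cells, 2 were called higher in microglia and 22 higher in OPC. For Dpysl3, a collapsin response mediator, the libraries gave 0.205 and 0.411 FPKM in microglia, against 85.5 and 94.5 FPKM in OPC, and a log2 difference of -6.12 (SE 0.22, adjusted p = 3.34e-11). Dcx, the doublecortin gene, was measured at 0.1 and 0.102 FPKM in microglia and at 19.3 and 11.8 FPKM in OPC, which is a log2 difference of -3.87 (SE 0.29, adjusted p = 2.80e-08). Tuba1a, an alpha-tubulin gene, stood at 163 and 182 FPKM in the microglia libraries, against 566 and 1068 FPKM in the OPC libraries, a log2 difference of -2.17 (SE 0.32, adjusted p = 2.73e-05). It was also abundant in microglia. The 2 called in microglia were Fscn1 and Marcksl1, whose products bind actin, Fscn1 at 393 and 491 FPKM in microglia and 90.4 and 131 FPKM in OPC.

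Of 34 neurotransmitter receptor genes tested, none was called higher in microglia and 29 were called higher in OPC; the median was -2.37. The level of Gria2, an AMPA receptor subunit gene, was 0.425 and 0.552 FPKM in microglia, against 163 and 55.2 FPKM in OPC, and the log2 difference was -6.01 (SE 0.46, adjusted p = 2.96e-08). It was higher in OPC library 1 than in library 2. Grin3a, an NMDA receptor subunit, had 0.1 and 0.148 FPKM in microglia and 23.1 and 23.7 FPKM in OPC, with a log2 difference of -4.44 (SE 0.15, adjusted p = 2.08e-11). For Gabra3, a subunit of the GABA-A receptor, the libraries gave 0.306 and 0.356 FPKM in microglia, against 24.1 and 23.4 FPKM in OPC, and a log2 difference of -4.22 (SE 0.24, adjusted p = 1.19e-09). Grm5, a metabotropic glutamate receptor, was measured at 0.1 and 0.107 FPKM in microglia and at 16.9 and 9.60 FPKM in OPC, which is a log2 difference of -3.64 (SE 0.28, adjusted p = 3.14e-08). Of 34 channel genes tested, 6 were called higher in microglia and 26 higher in OPC. Kcnj10, an inward rectifier potassium channel, stood at 2.89 and 2.14 FPKM in the microglia libraries, against 101 and 64.2 FPKM in the OPC libraries, a log2 difference of -4.54 (SE 0.33, adjusted p = 1.98e-08). The level of Kcnd2, an A-type potassium channel, was 0.1 and 0.115 FPKM in microglia, against 30.8 and 23.2 FPKM in OPC, and the log2 difference was -4.65 (SE 0.18, adjusted p = 5.04e-11). Scn3a, a sodium channel, had 0.1 and 0.1 FPKM in microglia and 15.8 and 6.76 FPKM in OPC, with a log2 difference of -3.38 (SE 0.31, adjusted p = 1.90e-07). For Hvcn1, a proton channel of phagocytes, the libraries gave 129 and 116 FPKM in microglia, against 5.28 and 2.995 FPKM in OPC, and a log2 difference of 4.62 (SE 0.19, adjusted p = 7.99e-11). Trpv2, Kcnk6, Kcnk13 and Kcnn4 were among the other 5 channels called higher in microglia.

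Genes of cell division were higher in OPC in most cases. Of 38 tested, 1 was called higher in microglia and 28 higher in OPC, with a median of -1.42. With median-of-ratios scaling 2 and 22 were called, with a median of -1.09, and with a common sum 1 and 31. Top2a, a topoisomerase of dividing cells, was measured at 1.67 and 0.169 FPKM in microglia and at 13.2 and 9.28 FPKM in OPC, which is a log2 difference of -2.77 (SE 0.35, adjusted p = 6.37e-06). Ccna2, a cyclin gene, stood at 1.04 and 0.272 FPKM in the microglia libraries, against 15.2 and 9.47 FPKM in the OPC libraries, a log2 difference of -3.01 (SE 0.32, adjusted p = 9.42e-07). The level of Mcm6, a subunit of the replicative helicase, was 5.41 and 2.91 FPKM in microglia, against 19.7 and 28.6 FPKM in OPC, and the log2 difference was -2.31 (SE 0.31, adjusted p = 1.13e-05). In 25 of the 28 genes called in OPC, microglia library 2 was below library 1. Cdkn1a, the gene of a cyclin-dependent kinase inhibitor, had 119 and 98.6 FPKM in microglia and 4.72 and 6.41 FPKM in OPC, with a log2 difference of 4.07 (SE 0.34, adjusted p = 8.49e-08). It was the single gene of the list called in microglia as deposited. Of 21 enzymes of sterol synthesis tested, 2 were called higher in microglia and 15 higher in OPC, with a median of -1.46. The count in OPC was 10 with median-of-ratios scaling, with a median of -0.998, and 19 with a common sum. For Sqle, the squalene epoxidase gene, the libraries gave 2.72 and 1.49 FPKM in microglia, against 43.8 and 54.9 FPKM in OPC, and a log2 difference of -4.04 (SE 0.19, adjusted p = 2.34e-10). Idi1, an isomerase gene of the same pathway, was measured at 1.58 and 1.33 FPKM in microglia and at 37.4 and 21.3 FPKM in OPC, which is a log2 difference of -3.58 (SE 0.37, adjusted p = 6.81e-07). Ebp and Mvd, enzymes of the same pathway, were called higher in microglia as deposited. With the libraries scaled to a common sum none of the list was called in microglia, and without OPC library 1 only 1 was. Hmgcs1 was listed at 0.1 FPKM in all 4 libraries.

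Ligands and receptors through which microglia and OPC may meet were followed as 47 genes, of which 45 were tested. Of these, 23 were called higher in microglia and 14 higher in OPC. The shares, 51.1% and 31.1%, stand against 13.6% and 37.5% over all genes tested. The list thus did not lean toward OPC more than all genes tested. Tgfb1, the transforming growth factor beta that microglia depend on, stood at 227 and 269 FPKM in the microglia libraries, against 10.4 and 4.74 FPKM in the OPC libraries, a log2 difference of 4.94 (SE 0.26, adjusted p = 6.68e-10). The level of Tgfbr2, the ligand-binding receptor of Tgfb1, was 58.3 and 60.6 FPKM in microglia, against 5.81 and 3.10 FPKM in OPC, and the log2 difference was 3.52 (SE 0.20, adjusted p = 1.47e-09). Of the other isoforms of the ligand, Tgfb2 stood at 0.1 and 0.1 FPKM in microglia and 4.01 and 3.32 FPKM in OPC. Csf1, the ligand of Csf1r, had 254 and 139.6 FPKM in microglia and 16.2 and 9.95 FPKM in OPC, with a log2 difference of 3.79 (SE 0.37, adjusted p = 3.87e-07). For Pdgfb, a platelet-derived growth factor chain, the libraries gave 171 and 144 FPKM in microglia, against 6.01 and 2.28 FPKM in OPC, and a log2 difference of 5.04 (SE 0.26, adjusted p = 5.43e-10). Likewise Pdgfa stood at 35.7 and 32.9 FPKM in microglia and 6.54 and 10.1 FPKM in OPC. Both encode chains of ligands for Pdgfra, and both genes were called higher in microglia. Cd200, a surface ligand, was measured at 0.351 and 0.325 FPKM in microglia and at 28.95 and 31.3 FPKM in OPC, which is a log2 difference of -4.54 (SE 0.19, adjusted p = 7.47e-11). Its receptor gene Cd200r1 stood at 1.69 and 1.11 FPKM in microglia and 0.282 and 0.1 FPKM in OPC. Sema4d, a semaphorin, stood at 90.3 and 77.2 FPKM in the microglia libraries, against 9.08 and 8.38 FPKM in the OPC libraries, a log2 difference of 3.12 (SE 0.20, adjusted p = 4.42e-09). Of the plexin-B genes, Plxnb2 was called higher in microglia and Plxnb1 and Plxnb3 higher in OPC. Plxnb1 was measured at 1.28 and 1.48 FPKM in microglia and at 23.4 and 24.6 FPKM in OPC, which is a log2 difference of -3.39 (SE 0.13, adjusted p = 4.29e-11). Plxnb3 stood at 2.03 and 2.52 FPKM in the microglia libraries, against 18.5 and 18.8 FPKM in the OPC libraries, a log2 difference of -2.59 (SE 0.16, adjusted p = 4.20e-09). The level of Igf2, an insulin-like growth factor gene, was 1.94 and 1.98 FPKM in microglia, against 43.5 and 48.7 FPKM in OPC, and the log2 difference was -3.99 (SE 0.52, adjusted p = 7.69e-06). Igf1 was not called. In several pairs the ligand was called in one type and a receptor in the other: Csf1r with Il34, Cx3cr1 with Cx3cl1, Pdgfra with Pdgfa and Pdgfb, Cd200r1 with Cd200, and Plxnb1 with Sema4d. The call of Cd200r1 was lost without microglia library 1 or without OPC library 2, and that pair with it. With the libraries scaled to a common sum, 19 genes of the list were called in each direction. Of the genes in the pairs named, Csf1r, Cx3cr1, Cd200r1 and Pdgfb were highest in microglia among the purified types, and Pdgfra in OPC. The others were highest elsewhere: Il34, Cx3cl1 and Cd200 in neurons, Plxnb1 in astrocytes, and Pdgfa and Sema4d in newly formed oligodendrocytes.

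**Figure D4:**
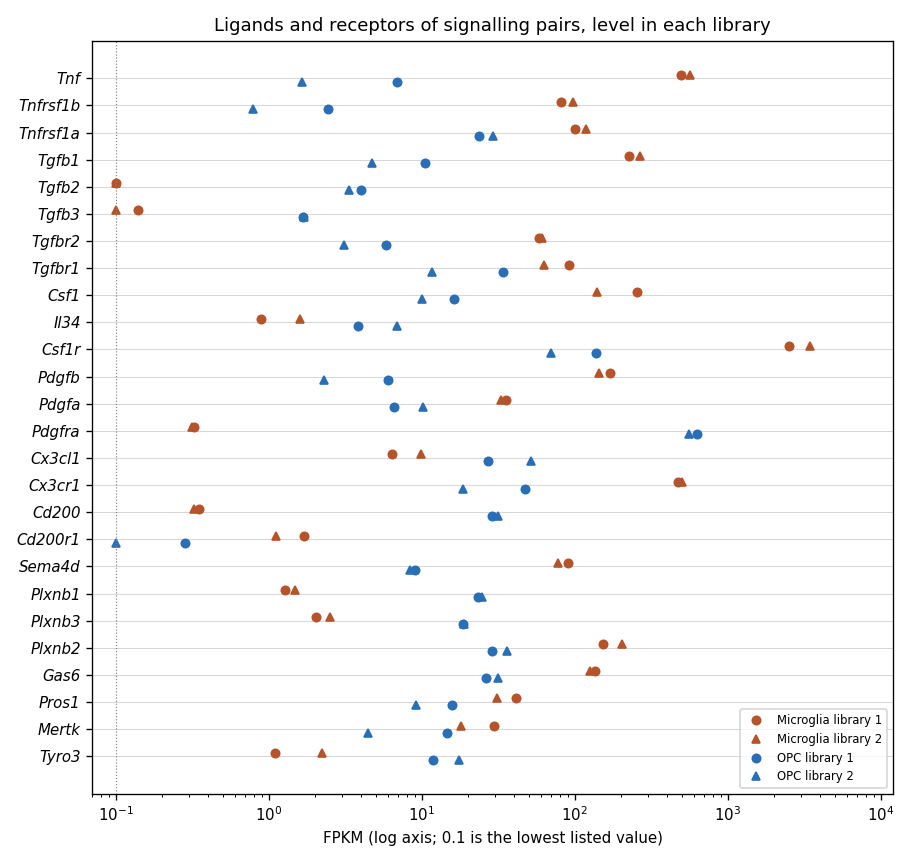
Level in FPKM (log axis) of ligands and receptors in the microglia libraries and the OPC libraries. Each point is 1 library and the dotted line is the lowest listed value of 0.1. Tnf, Tgfb1, Csf1, Pdgfb and Sema4d lie higher in microglia, and Cx3cl1, Il34, Cd200, Tgfb2, Plxnb1 and Pdgfra higher in OPC.

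Immediate-early and stress genes, which cells also raise while tissue is dissociated, were called higher in microglia in 22 of 26 and higher in OPC in 2, Nr4a2 and Cyr61, or none with median-of-ratios scaling, with a median of 3.53. Zfp36, an RNA-binding protein that destabilises cytokine messages, had 2654 and 2035 FPKM in microglia and 96.2 and 31.9 FPKM in OPC, with a log2 difference of 5.36 (SE 0.40, adjusted p = 2.29e-08). For Atf3, a stress-induced factor, the libraries gave 1545 and 878 FPKM in microglia, against 80.2 and 42.7 FPKM in OPC, and a log2 difference of 4.29 (SE 0.32, adjusted p = 2.39e-08). Hspa1a, a heat shock gene with a near-identical copy that can share its reads, was measured at 524 and 1042 FPKM in microglia and at 50.8 and 74.6 FPKM in OPC, which is a log2 difference of 3.56 (SE 0.38, adjusted p = 1.13e-06). Fos, a transcription factor gene induced within minutes, stood at 1346 and 611 FPKM in the microglia libraries, against 293 and 279 FPKM in the OPC libraries, a log2 difference of 1.66 (SE 0.28, adjusted p = 9.95e-05). The level of Egr1, another induced transcription factor gene, was 1204 and 521 FPKM in microglia, against 151 and 93.6 FPKM in OPC, and the log2 difference was 2.72 (SE 0.33, adjusted p = 3.89e-06). Both were abundant in either type. In 9 of the 26, Egr1, Fos, Egr3 and Klf2 among them, microglia library 1 was more than 2 times as high as library 2. Whether the handling of the tissue had a part in the levels of these genes or of the cytokines above was not tested.

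Isoform use was compared as the share that each isoform has in the sum of the isoforms of its gene. Of 28408 isoforms listed, the test took those of 846 genes that had at least 5 FPKM in every one of the 4 libraries and at least 2 isoforms with a share of 5% or more. Isoform use differed in 202 genes (23.9%), by diffSplice of limma with Simes' method. The call took an adjusted p-value below 0.05 and, in at least 1 isoform, a share difference of at least 20 percentage points. The shares of that isoform also had to be without overlap between the types. In 107 of the 202 the most used isoform was another one in microglia than in OPC, and in 32 a share differed by 50 points or more. Of the 202 genes, 35 were also called higher in microglia at the gene level, 39 higher in OPC and 128 neither. The isoform shares are the estimates of Cufflinks, not direct counts.

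The kinase gene Fyn, on chromosome 10, is the clearest case of a pair of alternative exons. Its transcripts carry 1 of 2 exons at the junction of the SH2 and kinase domains; the form with one is known from T cells and the form with the other from brain. The 2 exons, read from GENCODE M21 transcripts matched to the isoforms, are shown in capitals with 15 shared coding bases on each side, since the difference between the cell types lies in them:
Fyn exon of the isoform favoured in microglia: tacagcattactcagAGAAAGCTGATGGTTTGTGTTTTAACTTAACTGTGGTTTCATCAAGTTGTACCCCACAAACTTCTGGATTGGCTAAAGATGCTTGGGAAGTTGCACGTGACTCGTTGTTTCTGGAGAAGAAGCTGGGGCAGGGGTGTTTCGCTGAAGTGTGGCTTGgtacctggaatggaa
Fyn exon of the isoform favoured in OPC: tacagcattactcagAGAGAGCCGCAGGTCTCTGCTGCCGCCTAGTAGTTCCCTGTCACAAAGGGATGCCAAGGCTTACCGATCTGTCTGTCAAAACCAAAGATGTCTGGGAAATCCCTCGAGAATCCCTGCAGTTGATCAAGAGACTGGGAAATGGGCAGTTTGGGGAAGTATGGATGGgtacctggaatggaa
They measure 156 and 165 bases and start at the same coding base, 698. The 156-base exon was held by 73.2% and 73.9% of the isoform FPKM in microglia, against 10.4% and 4.81% in OPC. The 165-base exon was held by 26.8% and 26.1% of the isoform FPKM in microglia, against 89.6% and 95.2% in OPC. The main isoforms differed by 65.9 points (adjusted p = 4.17e-11). Fyn as a whole was higher in OPC: 10.5 and 8.67 FPKM in microglia and 76.00 and 85.5 FPKM in OPC.

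The amyloid precursor gene App, on chromosome 16, differed at 2 places of its coding sequence. The first is a 168-base segment that encodes the Kunitz protease inhibitor domain, and the second a 54-base segment near the transmembrane part whose absence marks the form known from leukocytes. They are shown in capitals between shared coding bases:
App segment favoured in microglia: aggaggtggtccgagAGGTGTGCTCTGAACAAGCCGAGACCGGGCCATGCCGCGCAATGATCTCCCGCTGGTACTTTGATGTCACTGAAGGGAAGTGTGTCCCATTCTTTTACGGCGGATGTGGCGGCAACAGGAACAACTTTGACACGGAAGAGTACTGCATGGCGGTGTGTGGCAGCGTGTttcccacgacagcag
App segment favoured in OPC: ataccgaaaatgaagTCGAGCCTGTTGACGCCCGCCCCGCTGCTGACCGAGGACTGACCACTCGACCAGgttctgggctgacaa
The 168-base segment was held by 86.97% and 84.1% of the isoform FPKM in microglia, against 34.7% and 33.00% in OPC. The 54-base segment was held by 27.03% and 27.5% of the isoform FPKM in microglia, against 95.5% and 96.2% in OPC. Microglia thus held mostly isoforms with the first and without the second, and nearly all App in OPC had the second (adjusted p = 5.92e-09). In the related gene Aplp2, on chromosome 9, a 36-base segment was held by 13.3% and 5.09% of the isoform FPKM in microglia, against 44.6% and 45.4% in OPC (adjusted p = 5.92e-09). A 168-base segment of Aplp2 was held by 83.3% and 75.3% of the isoform FPKM in microglia, against 55.3% and 54.6% in OPC.

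The histone gene H2afy, on chromosome 13, encodes macroH2A1 and also has a pair of alternative exons, of which one gives the form able to bind ADP-ribose metabolites. Both are shown for comparison, in capitals between shared coding bases:
H2afy exon favoured in microglia: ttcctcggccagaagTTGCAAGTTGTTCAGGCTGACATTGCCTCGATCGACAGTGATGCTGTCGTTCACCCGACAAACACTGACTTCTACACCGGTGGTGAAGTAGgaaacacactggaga
H2afy exon favoured in OPC: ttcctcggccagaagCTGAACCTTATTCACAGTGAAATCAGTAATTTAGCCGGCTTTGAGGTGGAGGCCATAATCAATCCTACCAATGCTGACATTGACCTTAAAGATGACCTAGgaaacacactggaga
They measure 91 and 100 bases. The 91-base exon was held by 68.7% and 73.2% of the isoform FPKM in microglia, against 24.4% and 17.4% in OPC, and the 100-base exon by 31.3% and 26.8% of the isoform FPKM in microglia, against 75.6% and 82.6% in OPC (adjusted p = 5.70e-06). Pip5k1c, a lipid kinase gene on chromosome 10, ends in a 78-base stretch in one isoform only, which lengthens the C-terminal tail:
Pip5k1c segment favoured in OPC: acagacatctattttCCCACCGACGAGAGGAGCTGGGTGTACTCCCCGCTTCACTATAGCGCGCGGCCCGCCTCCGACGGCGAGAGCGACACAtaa
It was held by 14.99% and 16.9% of the isoform FPKM in microglia, against 82.8% and 94.03% in OPC (adjusted p = 5.25e-09). Microglia used the isoform without it, and OPC the isoform with it.

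Other large shifts turned on where a transcript begins or on long segments. In Ptpro, a receptor phosphatase gene, a 2463-base segment at the start of the coding sequence of 3597 bases was held by 0.801% and 0.86% of the isoform FPKM in microglia, against 98.4% and 95.8% in OPC, and microglia used the short forms that begin later (adjusted p = 5.39e-21). In Rtn4, the gene of the Nogo proteins, the 2418-base segment of the long form was held by 11.6% and 7.99% of the isoform FPKM in microglia, against 68.1% and 62.6% in OPC (adjusted p = 7.59e-08). In Adar, an RNA-editing enzyme, a 744-base segment at the start of the coding sequence of the long form was held by 79.8% and 85.4% of the isoform FPKM in microglia, against 14.8% and 9.31% in OPC (adjusted p = 6.32e-12). The isoforms of the chromatin remodelling subunit gene Smarcc2 differed by 72.6 points and those of the exchange factor gene Rapgef1 by 65.9 points. Entries listed under the symbol Ece2 differed by 80.7 points. Their coding sequences, of 768 bases in the one favoured in microglia and 2292 in the other, share no base. The Ece2 shift is thus not one between forms of a single coding sequence. In Tmcc3, Usp2 and Med22 the coding sequences of the 2 isoforms differed at one end, and in Sgms1 they did not differ at all, so that only the untranslated parts distinguish them. Together with Pip5k1c these are among the 12 genes with the largest called share differences. Of 52 genes listed for alternative splicing in blood or neural cells, 14 met the conditions of the test and 7 were called: Fyn, App, Aplp2, H2afy, Sirpa, Mtap4 and Arhgef1. Add1, Bin1, Capzb, Clta, Lyn, Numb and Sept9 were not called; in the capping protein gene Capzb an 88-base segment was held by 78.5% and 79.3% of the isoform FPKM in microglia, against 60.7% and 64.3% in OPC, a difference of less than 20 points.

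**Figure D5:**
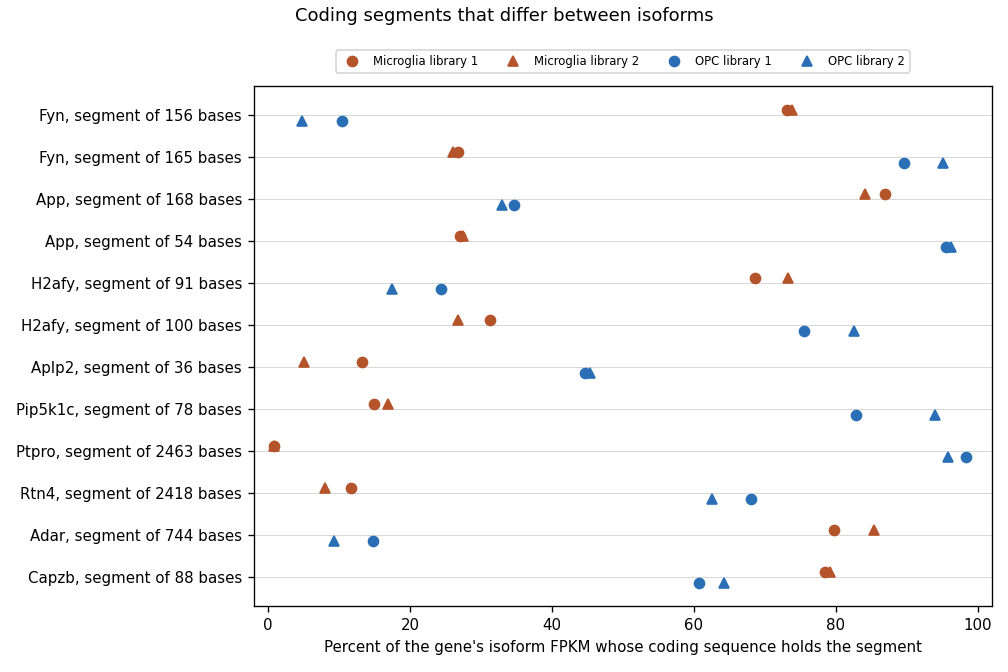
Percent of a gene's isoform FPKM whose coding sequence holds the named segment, in the microglia libraries and the OPC libraries; each point is 1 library and the number of bases is the length of the segment. The 2 types do not overlap in any of the 12 segments, and the widest gap is that of the Ptpro segment. For all genes shown but Capzb, shares of at least 1 isoform without overlap were a condition of the call.

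Genes that regulate splicing were themselves unequal. Of 28 tested, 1 was called higher in microglia and 19 higher in OPC, with a median of -1.50. Ptbp1, the polypyrimidine tract binding protein of non-neuronal cells, had 129.7 and 122 FPKM in microglia and 23.6 and 32.7 FPKM in OPC, with a log2 difference of 2.14 (SE 0.27, adjusted p = 6.29e-06). For Ptbp2, the neural counterpart of Ptbp1, the libraries gave 2.86 and 1.70 FPKM in microglia, against 51.96 and 33.1 FPKM in OPC, and a log2 difference of -3.72 (SE 0.25, adjusted p = 7.19e-09). Qk, the gene of quaking and an RNA-binding protein of glia, was measured at 42.00 and 27.4 FPKM in microglia and at 264 and 131 FPKM in OPC, which is a log2 difference of -2.42 (SE 0.35, adjusted p = 2.06e-05). Nova1, a neural splicing factor, stood at 2.15 and 1.85 FPKM in the microglia libraries, against 32.5 and 16.8 FPKM in the OPC libraries, a log2 difference of -3.02 (SE 0.26, adjusted p = 9.20e-08). The level of Elavl4, an RNA-binding protein best known from neurons, was 0.372 and 0.337 FPKM in microglia, against 19.3 and 10.3 FPKM in OPC, and the log2 difference was -3.48 (SE 0.27, adjusted p = 3.89e-08). Microglia thus had Ptbp1 as the single member called in their direction, and Ptbp2 had the largest difference on the OPC side. The muscleblind gene Mbnl1 was not called. The part of these levels in the isoform differences was not tested.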

How the data were processed

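PolyA RNA of mouse cerebral cortex was measured in 17 libraries of 8 groups, of which the 2 microglia and the 2 OPC libraries were compared, grouped by their titles. The authors deposited FPKM per gene symbol and per RefSeq isoform; per the submitters' processing notes reads were handled with Cufflinks 1.3.0, Bowtie 0.12.7, TopHat 1.3.3 and CASAVA, on build mm9. Values under 0.1 FPKM are listed as 0.1. Every gene value with no isoform at 0.1 FPKM matched its summed isoforms to 0.001 FPKM. The other gene values were not compared. Whole reads could not be recovered: at most 6 of 2097 low single-isoform genes shared a ratio between the microglia libraries, against up to 5 after shuffling. Depth per library is thus unknown, and the counting error of low values with it.

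The test was limma (version 3.58.1, run under R 4.3.3), applied to log2(FPKM + 1) values, a pseudocount of 1, in a cell-means model of all 8 groups with a trended prior variance, for genes with at least 1 FPKM in 2 of 17 libraries, with a two-sided test and Benjamini-Hochberg adjustment over 14011 genes. Isoform use was tested with diffSplice and Simes' method. Both were tested on simulated data. Mapped segments and promoters come from GENCODE M21 and RefSeq on GRCm38.p6, matched by accession or symbol; since the files' build is mm9, the reference served for names and sequences, and a gene with several promoters was represented by the one of lowest coordinate. Of 876 list entries, 871 matched a gene of the files.

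The comparison, the gene lists and the motifs were chosen with earlier results of these data known, so the counts describe the lists and no list was tested. The rule for named genes took up to 8 members per list with the largest differences and members against their list. It took the 12 largest called in each direction whose libraries did not overlap, passing over symbols of the Rik, Gm and LOC kinds. It also took the listed splicing genes that were tested, the 12 largest isoform differences, and promoters of list members that hold a motif, at most 6 printed. Further members were named for their function after their values were seen. Alternatives were another pseudocount, other filters, 2 scalings, the replicate number as a block, only the 4 libraries in the fit, a constant prior variance, and each library left out. A few genes are not reported here. Tables were handled in Python 3.11.15.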

Additional observations from a re-analysis of the deposited data

How the results depend on the processing

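Counts of genes called moved by more than 1.5 times only with stricter limits, among the alternatives run. With a log2 difference of at least 2, 982 genes were higher in microglia and 2088 higher in OPC. For isoform use, 111 genes were called with a gene sum of at least 10 FPKM and 112 with a share difference of at least 30 points, against 202. The other settings gave 1304 to 2595 genes higher in microglia and 3838 to 7033 higher in OPC, with both ends set by the 2 scalings. Leaving out 1 library at a time gave 1808 to 2063 and 4965 to 5479 genes, and 178 to 221 genes with differing isoform use. With the replicate number as a block the counts were 1906, 5252 and 201 genes. The differences between library 1 and library 2 correlated at 0.456 between the types over 14011 genes, so equal numbers deviated together in this single pair of types. With only 2 numbers, and labels that do not say that a number marks a shared animal or day, whether the numbers pair the libraries is not known. Of the recomputed counts of list members called, 844 stayed within 1.5 times and 44 did not, nearly all of them counts of 3 or fewer. Over the 124 genes with printed levels no direction turned in any setting. C3 lost its call without microglia library 1, Cd200r1 without microglia library 1 or OPC library 2, and Fos and Psap with the 4 libraries alone in the fit, while Apoe and Lamp1 gained one with median-of-ratios scaling. Depth is unknown, so how far it limits the low genes cannot be said.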

Other observations

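Genes called in 1 direction were placed by the type, of 7 purified, in which their mean level was highest. Of the 1906 genes higher in microglia, 1463 (76.8%) were highest in microglia and 289 (15.2%) in endothelial cells, with 53 in astrocytes. Of the 5256 genes higher in OPC, 1402 (26.7%) were highest in OPC, 1314 in astrocytes, 1218 (23.2%) in neurons, 691 (13.1%) in endothelial cells and 432 (8.22%) in newly formed oligodendrocytes. Most of the calls on the OPC side thus concern genes that another type holds at a higher level. This tabulation has no test.

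Integrins and genes of lipid handling, which the text above names only in passing, were called in both directions. Over all genes tested, 13.6% were called higher in microglia and 37.5% higher in OPC. Integrins stood at 47.6% and 19.05%, and lipid genes at 28.6% and 23.8%. Both lists thus leaned more toward microglia than all genes tested. Of 21 integrin genes tested, 10 were called higher in microglia and 4 higher in OPC, with a median log2 difference of 0.01, whose sign changed with the libraries scaled to a common sum. The level of Itgb2, the beta chain of leukocyte integrins, was 145 and 173 FPKM in microglia, against 7.97 and 3.49 FPKM in OPC, and the log2 difference was 4.65 (SE 0.27, adjusted p = 2.01e-09). Itga5, a fibronectin receptor chain, had 36.6 and 34.3 FPKM in microglia and 1.067 and 0.753 FPKM in OPC, with a log2 difference of 4.26 (SE 0.17, adjusted p = 4.59e-11). For Itgb8, the gene of a chain that pairs with alpha-v to activate latent TGF-beta, the libraries gave 0.116 and 0.135 FPKM in microglia, against 43.9 and 28.3 FPKM in OPC, and a log2 difference of -5.01 (SE 0.32, adjusted p = 4.63e-09). Of 21 genes of lipid export and lipoprotein handling, 6 were called higher in microglia and 5 higher in OPC. Apoe, the main apolipoprotein of brain, was measured at 2501 and 2342 FPKM in microglia and at 1263 and 1042 FPKM in OPC, which is a log2 difference of 1.08 (SE 0.51, adjusted p = 0.0706). It was abundant in both and was not called. Clu, the clusterin gene, stood at 38.9 and 52.3 FPKM in the microglia libraries, against 307 and 241 FPKM in the OPC libraries, a log2 difference of -2.56 (SE 0.45, adjusted p = 1.37e-04). The level of Vldlr, a lipoprotein receptor, was 0.154 and 0.142 FPKM in microglia, against 18.7 and 14.3 FPKM in OPC, and the log2 difference was -3.92 (SE 0.27, adjusted p = 1.07e-08). Apod, an apolipoprotein, had 1.93 and 2.60 FPKM in microglia and 43.2 and 65.5 FPKM in OPC, with a log2 difference of -4.06 (SE 0.22, adjusted p = 1.00e-09). For Plin2, a coat protein of lipid droplets, the libraries gave 63.99 and 51.7 FPKM in microglia, against 11.6 and 16.9 FPKM in OPC, and a log2 difference of 1.96 (SE 0.28, adjusted p = 1.86e-05). With median-of-ratios scaling the lipid list had 8 genes called in microglia and 4 in OPC, and with scaling to a common sum 4 and 7, so its balance changes sides with the scaling.

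Genes with close levels were also counted. For 4306 of the 14011 genes the 95% interval of the log2 difference lay within 1 on both sides of 0, and 1279 of those averaged at least 10 FPKM in both types.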
